A study of Mus musculus with 112 samples.

Results

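The data described here are 4 of the 112 RNA-seq libraries of the series: LSD1 knockout (LSD1 KO) epiblast-like cells 1 and 2 and wild-type (WT) epiblast-like cells 1 and 2, chosen by their genotype, treatment and cell state in the sample labels. All 4 came from V6.5 mouse embryonic stem cells (ESCs) that were differentiated for 2 days into epiblast-like cells (EpiLCs). This was done on fibronectin in N2B27 medium with 20 ng/ml Activin A, 12 ng/ml FGF2 and 1% knockout serum replacement. DMSO, the solvent of the p300/CBP inhibitor A485, was present in all 4. In LSD1 KO cells the promoter and the first exon of Kdm1a, the gene of LSD1, had been deleted with CRISPR/Cas9. LSD1 catalytic inactive (LSD1 CI) EpiLCs carry point mutations of catalytic residues in the endogenous protein and were also kept in DMSO. They served as a further comparison (2 libraries), as did naive ESCs without DMSO (6 LSD1 KO and 3 WT libraries). Cells differentiated spontaneously for 4 days in serum with DMSO (2 LSD1 KO and 2 WT libraries) were another. LSD1 KO EpiLCs with A485 (2 libraries) entered the shared estimate of the spread and the chromosome 16 values. The study as a whole asked which functions of LSD1 depend on its demethylase activity and which on the protein. The mutant libraries of a group came from independent clones of this single ESC line, but the labels do not say which clone gave which library, so p-values measure the spread between these libraries only.

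LSD1 is a flavin-dependent enzyme that takes mono- and dimethyl marks off histone H3 lysine 4, mainly at enhancers and promoters. It works inside the CoREST complex together with the deacetylases HDAC1 and HDAC2 and the RCOR scaffold proteins. Naive ESCs resemble the epiblast before implantation and express genes such as Klf2, Esrrb and Tfcp2l1. On exposure to Activin A and FGF2 they shut these genes down within days and switch on formative genes such as Fgf5, Otx2 and the de novo DNA methyltransferases. LSD1 takes part in switching off stem cell enhancers on exit from this state.

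The 4 libraries held 32627402 and 44869997 counts (LSD1 KO) and 37074848 and 48554838 counts (WT), of which Rn45s, the ribosomal precursor, took 18.8% to 21.4%. Levels are given below as CPM, a count scaled by the total of its library, and fold changes as log2 of LSD1 KO over WT with the standard error of the fit. A gene was called higher or lower where the adjusted p of edgeR's quasi-likelihood test was below 0.01 and the absolute log2 fold change above 1. The cells fit their label: 10 formative markers summed to 2505 and 2487 CPM in LSD1 KO EpiLCs and to 3822 and 3879 CPM in WT EpiLCs, against 227 to 369 CPM in naive ESCs of both genotypes. Dnmt3b and Dnmt3a made up most of the formative sum in each of the 4 libraries and most of its difference between genotypes. None of the 10 formative markers was called. The 10 naive markers summed to 394 and 442 CPM in LSD1 KO EpiLCs and to 132 and 106 CPM in WT EpiLCs, against 3633 to 4284 CPM in naive ESCs. In bulk RNA, fewer cells of a type and less RNA per cell cannot be told apart.

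Kdm1a itself (chr4:136106448-136158638, minus strand, mm9) was measured first as the check of the labels. It had 0.429 and 0.379 CPM in LSD1 KO EpiLCs, against 170.3 and 170.2 CPM in WT EpiLCs (log2 fold change -8.76 ± 0.12, edgeR adjusted p = 2.31e-16). Both LSD1 KO libraries were far below both WT libraries. LSD1 CI EpiLCs, which keep the gene in mutated form, had 111 and 107 CPM. In naive ESCs it had 3.43 to 6.85 CPM in LSD1 KO ESCs (median 5.72), against 141, 177 and 153 CPM in WT ESCs. The promoter windows of Kdm1a, which is deleted in LSD1 KO cells, and of Klf2 and Robo4, a naive and an endothelial gene that rose in LSD1 KO EpiLCs, are shown here from 250 bases before to 50 bases after the start (RefSeq, build GRCm38.p6). Capitals mark the KLF box CACCC or its reverse complement GGGTG, the core of the sites that KLF proteins bind, searched on both strands.
Kdm1a, chr4:136602674-136602973, minus strand: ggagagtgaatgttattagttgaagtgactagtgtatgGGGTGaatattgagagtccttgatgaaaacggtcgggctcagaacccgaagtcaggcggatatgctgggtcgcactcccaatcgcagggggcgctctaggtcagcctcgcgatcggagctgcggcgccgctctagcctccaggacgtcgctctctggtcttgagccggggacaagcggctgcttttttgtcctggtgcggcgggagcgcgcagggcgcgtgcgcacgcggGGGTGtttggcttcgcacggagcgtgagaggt
Klf2, chr8:72318812-72319111, plus strand: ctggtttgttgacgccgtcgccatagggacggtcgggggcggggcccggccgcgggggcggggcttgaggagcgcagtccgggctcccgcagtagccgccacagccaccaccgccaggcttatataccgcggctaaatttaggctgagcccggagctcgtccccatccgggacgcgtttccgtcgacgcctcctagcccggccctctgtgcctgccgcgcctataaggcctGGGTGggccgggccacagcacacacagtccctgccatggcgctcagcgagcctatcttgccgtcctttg
Robo4, chr9:37401722-37402021, plus strand: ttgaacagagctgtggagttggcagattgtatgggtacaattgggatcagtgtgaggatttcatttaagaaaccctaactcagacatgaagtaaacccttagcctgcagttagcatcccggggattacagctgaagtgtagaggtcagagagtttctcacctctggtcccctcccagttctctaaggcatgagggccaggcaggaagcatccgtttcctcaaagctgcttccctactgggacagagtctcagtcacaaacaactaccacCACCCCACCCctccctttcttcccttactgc
The Kdm1a window held 2 reverse copies, the Klf2 window 1 reverse copy and the Robo4 window 2 forward copies, which abut each other. The box was in 11 of the 16 windows found for 13 of 20 naive pluripotency genes (68.8%) and in 57.5% of all 32851 windows.

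Loss of LSD1 raised more genes than it lowered in EpiLCs. Of 15986 genes tested, 1091 were higher (6.82%) and 426 were lower (2.66%) in LSD1 KO than in WT EpiLCs. The genes that rose were for the most part lowly expressed in WT EpiLCs: their median level was 5.97 CPM in LSD1 KO and 1.48 CPM in WT EpiLCs, and 446 of them (40.88%) averaged below 1 CPM in WT EpiLCs. Over all genes tested, the median level in WT EpiLCs was 12.06 CPM and 22.09% averaged below 1 CPM. The genes that fell had a median level of 2.37 CPM in LSD1 KO and 6.26 CPM in WT EpiLCs. Changes beyond a log2 value of 3 were found for 217 genes that rose and 29 that fell. Leaving out each of the 4 libraries in turn gave 851 to 1100 higher genes. It gave 271 to 448 lower genes, with the lowest count without LSD1 KO EpiLC replicate 2.

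**Figure D1:**
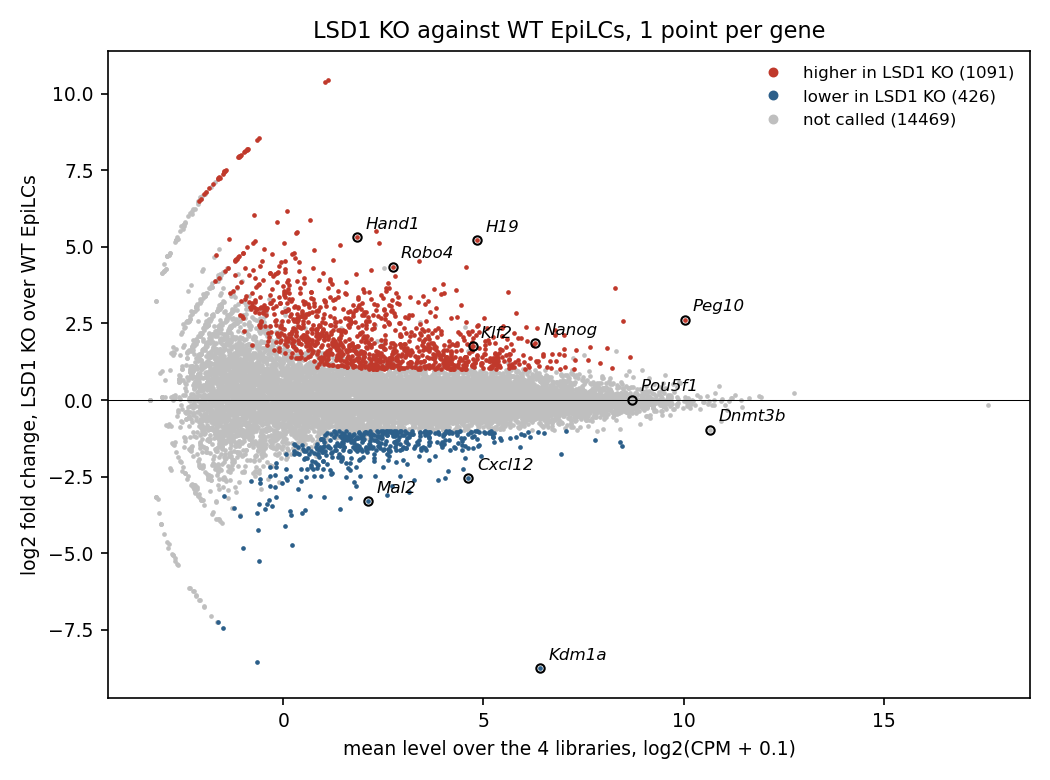
Log2 fold change of LSD1 KO over WT EpiLCs (vertical) against the mean level of the 4 libraries as log2(CPM + 0.1) (horizontal), 1 point per tested gene, with 1091 genes called higher in red, 426 called lower in blue and the others in grey. Most called genes lie above 0 at low to middle levels, Pou5f1 lies at 0, Dnmt3b lies just inside the fold threshold, and the curved bands at the left edge are genes at or near 0 counts in a group, whose fitted values are not fold changes.

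The largest increases among genes of at least 5 CPM were in 1700013H16Rik, Hand1, H19, Pkd2l1, Tex13b, Rcsd1, Robo4, Gm364, Sytl3, Txlnb, Tfap2c and Aox3, with log2 fold changes of 3.87 to 5.51. Hand1 is a transcription factor of trophoblast and early mesoderm, and had 5.09 and 8.603 CPM in LSD1 KO EpiLCs, against 0.216 and 0.124 CPM in WT EpiLCs (log2 fold change 5.32 ± 0.41, edgeR adjusted p = 1.48e-07). Tfap2c, an AP-2 factor of trophoblast and germ cell precursors, had 11.9 and 14.00 CPM in LSD1 KO EpiLCs, against 0.809 and 0.7002 CPM in WT EpiLCs (log2 fold change 4.06 ± 0.30, edgeR adjusted p = 1.85e-07). Pkd2l1, a cation channel of the polycystin family, had 10.7 and 9.32 CPM in LSD1 KO EpiLCs, against 0.405 and 0.165 CPM in WT EpiLCs (log2 fold change 5.14 ± 0.36, edgeR adjusted p = 7.46e-08). In all 3 genes both LSD1 KO libraries lay above both WT libraries. Rcsd1, which encodes an actin capping regulator, had 17.2 and 22.8 CPM in LSD1 KO EpiLCs, against 1.35 and 0.412 CPM in WT EpiLCs, with non-overlapping groups (log2 fold change 4.54 ± 0.35, edgeR adjusted p = 4.05e-06). The X-linked Gm364 had 44.2 and 46.1 CPM in LSD1 KO EpiLCs, against 3.08 and 1.36 CPM in WT EpiLCs, again without overlap (log2 fold change 4.36 ± 0.23, edgeR adjusted p = 3.56e-07).

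Beyond these, 29 of the 1091 genes that rose had no count in either WT library, as had 83 of all genes tested. Such genes passed the filter only through other EpiLC groups, so a lower call was not possible for them. The 2 most abundant of the 29, picked after their values were seen, were Nutm1, a chromatin factor of male germ cells, and Obox6, an oocyte homeobox gene of a multicopy family whose counts are therefore uncertain. Nutm1 had 136 and 184 counts in LSD1 KO EpiLCs and 0 in both WT libraries, at least 118-fold higher against a floor of 3 counts over the WT group. Obox6 had 112 and 200 counts in LSD1 KO EpiLCs and 0 in both WT libraries, at least 115-fold higher against the same floor.

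After Kdm1a, the largest decreases were in Mal2, Aadat, Rxrg, Ap1m2, Pde4b, Atcay, Arhgap20, Foxn4, Kif1a, Cldn7 and Cxcl12, with log2 fold changes of -3.30 to -2.55. Mal2, Ap1m2 and Cldn7 are known from epithelia, and Kif1a and Atcay from neurons. Mal2, a membrane protein of transcytosis in polarised epithelia, had 0.797 and 0.802 CPM in LSD1 KO EpiLCs, against 7.47 and 7.91 CPM in WT EpiLCs (log2 fold change -3.30 ± 0.26, edgeR adjusted p = 1.77e-07). Kif1a, the kinesin that carries synaptic vesicle precursors along axons, had 5.09 and 3.32 CPM in LSD1 KO EpiLCs, against 23.1 and 26.1 CPM in WT EpiLCs (log2 fold change -2.61 ± 0.18, edgeR adjusted p = 5.33e-08). Foxn4, a forkhead factor of retinal and spinal interneuron precursors, had 2.02 and 3.32 CPM in LSD1 KO EpiLCs, against 15.8 and 16.6 CPM in WT EpiLCs (log2 fold change -2.61 ± 0.21, edgeR adjusted p = 3.39e-07). The groups did not overlap in any of the 3 genes. Cxcl12, the chemokine ligand of CXCR4, had 8.06 and 6.78 CPM in LSD1 KO EpiLCs, against 32.1 and 51.4 CPM in WT EpiLCs. Both LSD1 KO libraries were lower (log2 fold change -2.55 ± 0.31, edgeR adjusted p = 0.000604), but the call was lost without LSD1 KO replicate 1 (adjusted p = 0.0161) or replicate 2 (adjusted p = 0.0213).

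Klf2, H19 and Robo4, examined as marker genes of this comparison, were all higher in LSD1 KO EpiLCs. Klf2 (chr8:74842961-74845553, plus strand, mm9) encodes a Krüppel-like factor that helps to hold ESCs in the naive state, and had 36.3 and 45.8 CPM in LSD1 KO EpiLCs, against 13.1 and 10.5 CPM in WT EpiLCs. Both LSD1 KO libraries lay above both WT libraries (log2 fold change 1.77 ± 0.15, edgeR adjusted p = 9.42e-07). H19 (chr7:149761435-149764051, minus strand, mm9), the maternally expressed long noncoding RNA beside Igf2, had 56.8 and 54.8 CPM in LSD1 KO EpiLCs, against 2.05 and 0.947 CPM in WT EpiLCs. The lower LSD1 KO library was still far above the higher WT library (log2 fold change 5.22 ± 0.28, edgeR adjusted p = 3.24e-07). Robo4 (chr9:37209557-37221608, plus strand, mm9), a guidance receptor of endothelial cells, had 12.6 and 12.4 CPM in LSD1 KO EpiLCs, against 0.701 and 0.494 CPM in WT EpiLCs, again with no overlap (log2 fold change 4.36 ± 0.26, edgeR adjusted p = 1.86e-08).

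Most naive pluripotency genes rose. Of the 20 listed and tested, 13 were higher and 0 lower in LSD1 KO than in WT EpiLCs, their median log2 fold change was 1.42 against 0.0019 over all genes tested, and 19 lay above 0. DESeq2 called 14 higher and 0 lower, and 0 fell at an unadjusted edgeR p under 0.05. Among the transcription factors, Esrrb, an orphan nuclear receptor of the naive network, had 74.2 and 80.1 CPM in LSD1 KO EpiLCs, against 21.3 and 16.8 CPM in WT EpiLCs (log2 fold change 1.98 ± 0.18, edgeR adjusted p = 5.14e-05). Tfcp2l1, a factor downstream of LIF, had 62.7 and 80.9 CPM in LSD1 KO EpiLCs, against 19.6 and 13.5 CPM in WT EpiLCs (log2 fold change 2.09 ± 0.18, edgeR adjusted p = 3.08e-05). Tbx3, a T-box factor of the same network, had 5.82 and 6.998 CPM in LSD1 KO EpiLCs, against 0.809 and 0.494 CPM in WT EpiLCs (log2 fold change 3.28 ± 0.29, edgeR adjusted p = 5.71e-07). The groups did not overlap in any of these. Nanog, the homeobox factor of the naive epiblast, had 117 and 128 CPM in LSD1 KO EpiLCs, against 34.2 and 31.6 CPM in WT EpiLCs (log2 fold change 1.86 ± 0.22, edgeR adjusted p = 0.000751). Its groups were also well apart, but the call was lost when LSD1 KO replicate 2 (adjusted p = 0.0103), WT replicate 1 (adjusted p = 0.013) or WT replicate 2 (adjusted p = 0.0174) was left out, with log2 fold changes of 1.79 to 1.90.

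Of the remaining naive genes, Dppa3, a maternal factor that protects methylation in the zygote, had 14.4 and 11.3 CPM in LSD1 KO EpiLCs, against 1.81 and 2.47 CPM in WT EpiLCs (log2 fold change 2.53 ± 0.24, edgeR adjusted p = 1.06e-06). Tcl1, a cofactor of AKT kinase, had 5.15 and 4.93 CPM in LSD1 KO EpiLCs, against 1.08 and 0.824 CPM in WT EpiLCs (log2 fold change 2.37 ± 0.34, edgeR adjusted p = 6.56e-05). The zinc finger gene Zfp42, also called Rex1, had 59.1 and 60.6 CPM in LSD1 KO EpiLCs, against 25.2 and 19.7 CPM in WT EpiLCs (log2 fold change 1.38 ± 0.10, edgeR adjusted p = 1.04e-07). Tet2, Pecam1 and Klf5 rose as well, with log2 fold changes of 1.46, 1.36 and 1.36. Prdm14 stood below 1 CPM in every EpiLC library, at 0.797 and 0.847 CPM in LSD1 KO EpiLCs, against 0.108 and 0.0824 CPM in WT EpiLCs (log2 fold change 3.05 ± 0.80, edgeR adjusted p = 0.00695), and Klf4 had 4.35 and 3.57 CPM in LSD1 KO EpiLCs, against 1.51 and 1.67 CPM in WT EpiLCs (log2 fold change 1.27 ± 0.34, edgeR adjusted p = 0.00889). Their groups did not overlap, yet both calls were lost whichever of the 4 libraries was left out (adjusted p of 0.0328 to 0.0599 for Prdm14 and of 0.0211 to 0.0529 for Klf4). Not called were Fbxo15 (1.59 ± 0.38, edgeR adjusted p = 0.0236), Manba (0.98 ± 0.14), Nr0b1 (0.88 ± 0.24), Fgf4 (0.56 ± 0.28), Nr5a2 (0.55 ± 0.23), Dppa5a (0.18 ± 0.06) and Socs3 (-0.02 ± 0.37), given as log2 fold changes. The naive genes thus stood higher in LSD1 KO than in WT EpiLCs while their summed level remained far below that of naive ESCs. Nanog and Dppa3 have retrocopies in the mouse genome, with which their reads may have been shared.

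**Figure D2:**
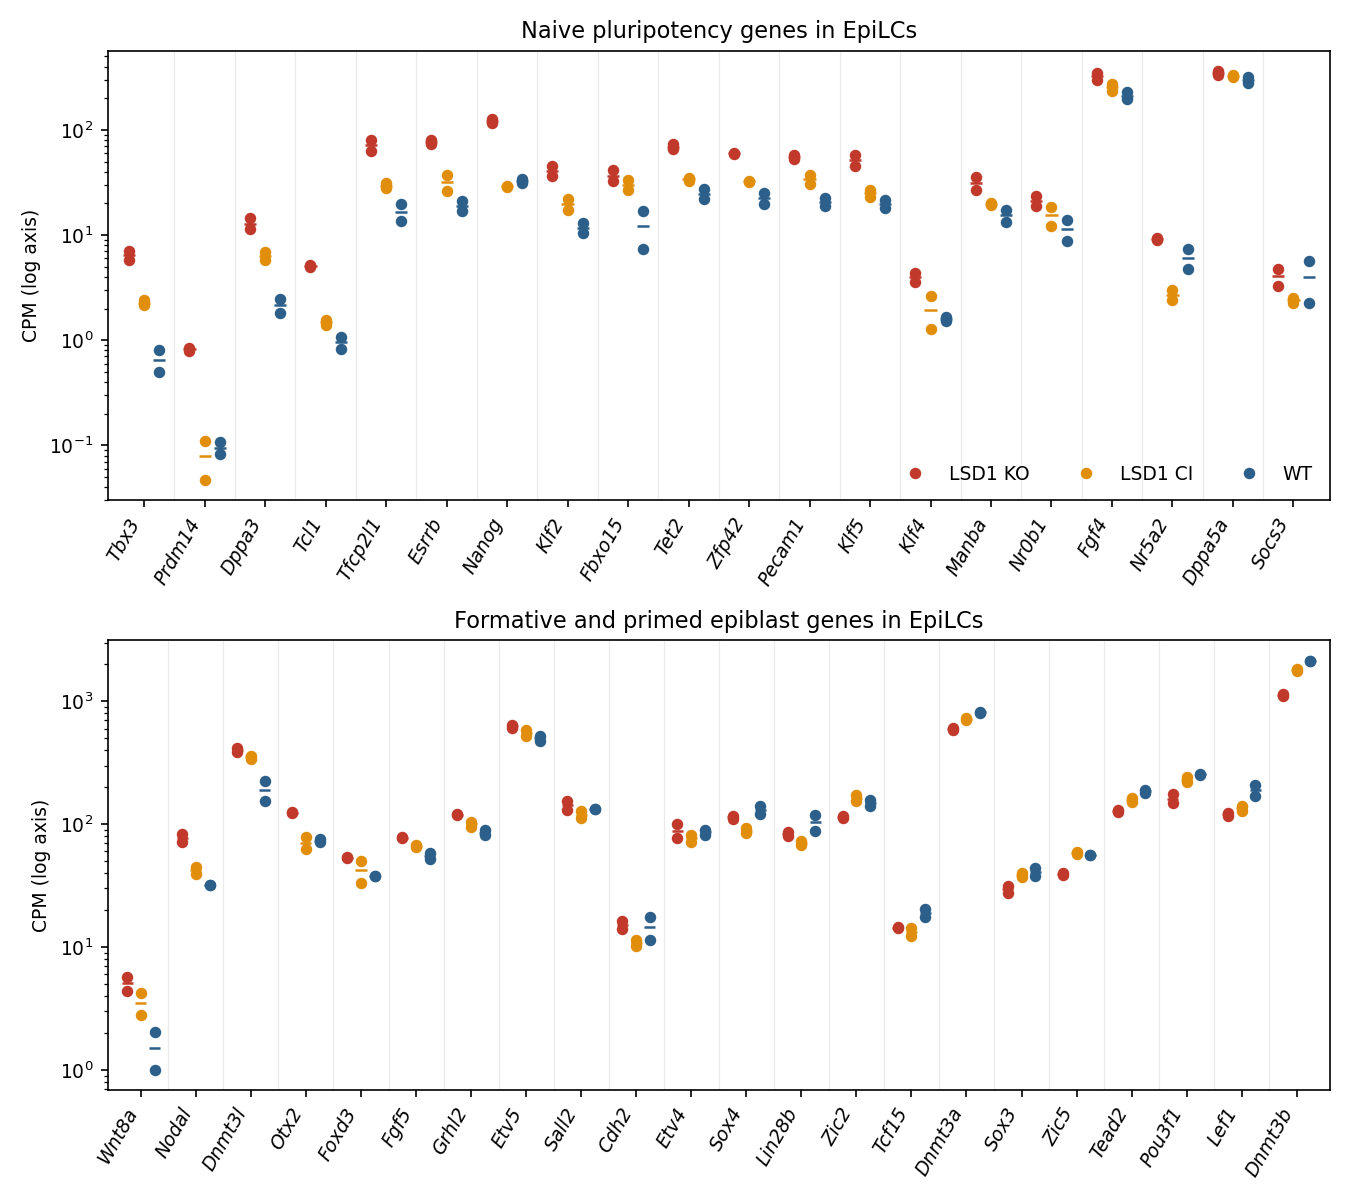
CPM on a log axis of 20 naive pluripotency genes (top) and 22 formative and primed epiblast genes (bottom) in LSD1 KO (red), LSD1 CI (orange) and WT (blue) EpiLCs, 1 point per library with a line at the mean of 2, ordered by the log2 fold change of LSD1 KO over WT. Of the naive genes, 13 were called higher in LSD1 KO than in WT EpiLCs, among them Tbx3 at 5.82 and 6.998 CPM against 0.809 and 0.494 CPM. Of the formative genes Dnmt3b stood lowest relative to WT, at 1097 and 1137 CPM against 2113 and 2139 CPM.

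Among general pluripotency genes a single call was made. Of 12 tested, 1 was higher and 0 were lower, with 2 below 0 at an unadjusted p under 0.05 and 0 lower by DESeq2. Pou5f1, which encodes OCT4 and was named after its values were seen, had 432 and 418 CPM in LSD1 KO EpiLCs and 428 and 394 CPM in WT EpiLCs, with overlapping groups and a log2 fold change of 0.01 ± 0.07. Sox2, its partner on DNA, had 161 and 161 CPM in LSD1 KO EpiLCs, against 68.2 and 60.7 CPM in WT EpiLCs (log2 fold change 1.28 ± 0.09, edgeR adjusted p = 1.09e-07), with no overlap. Lin28a, an RNA-binding protein that blocks let-7 maturation, had 359.9 and 361 CPM in LSD1 KO EpiLCs, against 588 and 609.9 CPM in WT EpiLCs. That log2 difference of -0.77 ± 0.05 was within the fold threshold although its groups did not overlap (edgeR adjusted p = 2.82e-08).

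Formative genes, which mark entry into the EpiLC state, were called in few cases. Of 22 tested, 3 were higher and 0 lower, and the median log2 fold change was -0.12. The higher count was 1 without LSD1 KO replicate 1 or WT replicate 2, 2 without LSD1 KO replicate 2 and 3 without WT replicate 1, and Dnmt3b was called lower without LSD1 KO replicate 2. At an unadjusted p under 0.05, 7 lay above 0 and 11 below, and DESeq2 called 3 higher and 0 lower. Nodal, the TGF-beta ligand that keeps the epiblast pluripotent, had 71.6 and 83.5 CPM in LSD1 KO EpiLCs, against 32.3 and 31.8 CPM in WT EpiLCs (log2 fold change 1.24 ± 0.10, edgeR adjusted p = 1.74e-07). Dnmt3l, the cofactor of the de novo methyltransferases, had 387 and 421 CPM in LSD1 KO EpiLCs, against 227 and 155 CPM in WT EpiLCs (log2 fold change 1.05 ± 0.17, edgeR adjusted p = 0.00438). Its WT libraries were far apart, and the call was lost without LSD1 KO replicate 1 (adjusted p = 0.0294), LSD1 KO replicate 2 (0.0426) or WT replicate 2 (log2 fold change 0.81). The Wnt ligand Wnt8a had 5.73 and 4.41 CPM in LSD1 KO EpiLCs, against 2.02 and 1.01 CPM in WT EpiLCs (log2 fold change 1.72 ± 0.37, edgeR adjusted p = 0.00194). Its groups did not overlap, but it was not called without LSD1 KO replicate 1 (adjusted p = 0.0177) or WT replicate 2 (0.0207).

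Both de novo methyltransferases had lower levels in LSD1 KO EpiLCs without passing the fold threshold. Dnmt3b had 1097 and 1137 CPM in LSD1 KO EpiLCs, against 2113 and 2139 CPM in WT EpiLCs. Both LSD1 KO libraries were lower, by a log2 difference of -0.97 ± 0.04 (edgeR adjusted p = 8.56e-10). Dnmt3a had 604 and 586 CPM in LSD1 KO EpiLCs, against 803 and 820.1 CPM in WT EpiLCs, likewise without overlap but with a smaller log2 difference of -0.49 ± 0.05. Pou3f1, a POU factor of the formative epiblast, had 175 and 148 CPM in LSD1 KO EpiLCs, against 257 and 252 CPM in WT EpiLCs, a log2 difference of -0.70 ± 0.07 with no overlap. Lef1, Tead2, Zic5, Sox3 and Zic2 had log2 values of -0.70, -0.59, -0.56, -0.52 and -0.41, all inside the threshold. Otx2, a homeobox factor that drives the naive to formative transition, had 125 and 123 CPM in LSD1 KO EpiLCs, against 76.01 and 71.3 CPM in WT EpiLCs. Its LSD1 KO libraries were above its WT libraries, but the difference did not pass the test (log2 fold change 0.71 ± 0.28, edgeR adjusted p = 0.113). The replicates of both groups lay close together, and the standard error also takes in the LSD1 CI and A485 EpiLC libraries. Fgf5, the classical EpiLC marker, had 76.96 and 78.4 CPM in LSD1 KO EpiLCs, against 58.3 and 52.4 CPM in WT EpiLCs, and was not called either (log2 fold change 0.45 ± 0.17, edgeR adjusted p = 0.0778).

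Within the KLF family, whose members bind the CACCC box, 4 of 20 tested genes were higher and 0 lower, with 0 below 0 at an unadjusted p under 0.05 and 0 lower by DESeq2. Besides Klf2, Klf4 and Klf5, which are counted among the naive genes, this was Klf17, a factor of the early embryo, at 7.48 and 5.93 CPM in LSD1 KO EpiLCs, against 1.08 and 0.824 CPM in WT EpiLCs (log2 fold change 2.78 ± 0.26, edgeR adjusted p = 1.15e-06). Its LSD1 KO libraries were well above its WT libraries. Klf8, an X-linked repressor of the family, had 22.2 and 17.6 CPM in LSD1 KO EpiLCs, against 10.6 and 9.14 CPM in WT EpiLCs and stayed inside the fold threshold (log2 fold change 0.97 ± 0.14).

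The signalling pathways that drive EpiLC differentiation are read against the 6.82% of all genes that were higher and the 2.66% that were lower. Of 26 FGF and ERK genes, 3 were lower and 0 higher (4 lay above 0 at an unadjusted p under 0.05, and DESeq2 called 0 higher). Fgf17, a ligand, had 0.429 and 0.401 CPM in LSD1 KO EpiLCs, against 4.72 and 4.76 CPM in WT EpiLCs (log2 fold change -3.55 ± 0.41, edgeR adjusted p = 8.76e-06). Egr1, an immediate early target of ERK, had 3.56 and 2.496 CPM in LSD1 KO EpiLCs, against 6.797 and 8.36 CPM in WT EpiLCs, and Myc, the growth-promoting bHLH factor, had 42.97 and 39.7 CPM in LSD1 KO EpiLCs, against 83.3 and 93.9 CPM in WT EpiLCs. Both fell, with log2 fold changes of -1.39 ± 0.20 and -1.14 ± 0.13. Of 20 Nodal and TGF-beta genes, Nodal alone was called, and its receptor subunit Acvr2b had a log2 value of -0.57 ± 0.07. Of 22 Wnt genes, 2 were higher and 1 lower. Axin2, a feedback target of the pathway, had 31.8 and 30.7 CPM in LSD1 KO EpiLCs, against 15.02 and 13.3 CPM in WT EpiLCs (log2 fold change 1.11 ± 0.15, edgeR adjusted p = 3.28e-05), while Tcf7 and Lef1, its nuclear effectors, had log2 values of -0.66 and -0.70. Sfrp1, a secreted Wnt antagonist, had 17.1 and 17.03 CPM in LSD1 KO EpiLCs, against 32.7 and 41.6 CPM in WT EpiLCs and fell by 1.17 on the log2 scale, but by only 0.96 without WT replicate 2. The lower count was then 0, and 2 without LSD1 KO replicate 1 or WT replicate 1. The higher count was 1 without LSD1 KO replicate 1 or WT replicate 2. Of 20 BMP genes, 2 were higher and 1 lower. The inhibitor gene Chrd lost its higher call without LSD1 KO replicate 1 (adjusted p = 0.0526) or WT replicate 1 (0.0362). The target Id3 lost its lower call without LSD1 KO replicate 1, LSD1 KO replicate 2 or WT replicate 2 (0.0145 to 0.0407). Bmp4, the ligand, had 6.31 and 8.74 CPM in LSD1 KO EpiLCs, against 1.86 and 1.15 CPM in WT EpiLCs (log2 fold change 2.30 ± 0.27, edgeR adjusted p = 8.68e-06).

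Several genes of the trophoblast lineage, which the epiblast does not form in the embryo, were switched up. Of 16 tested, 7 were higher and 0 lower (0 below 0 at an unadjusted p under 0.05, and 0 lower by DESeq2), and the median log2 fold change was 1.63. Besides Hand1 and Tfap2c they included Gata3, a GATA factor of the trophectoderm, with 4.57 and 5.93 CPM in LSD1 KO EpiLCs, against 0.459 and 0.474 CPM in WT EpiLCs (log2 fold change 3.45 ± 0.25, edgeR adjusted p = 1.04e-07). Esx1, a placental homeobox gene, had 33.4 and 25.8 CPM in LSD1 KO EpiLCs, against 2.08 and 2.06 CPM in WT EpiLCs (log2 fold change 3.79 ± 0.19, edgeR adjusted p = 8.03e-09). Eomes, a T-box factor of trophoblast stem cells and of the primitive streak, had 22.01 and 26.9 CPM in LSD1 KO EpiLCs, against 7.23 and 7.95 CPM in WT EpiLCs (log2 fold change 1.65 ± 0.12, edgeR adjusted p = 1.18e-07). Groups did not overlap in any of them. The defining trophoblast factors Cdx2 and Elf5 stayed below 1 CPM in all 4 libraries, and the 3 trophoblast markers summed to 5.61 and 7.13 CPM in LSD1 KO EpiLCs and to 0.89 and 0.515 CPM in WT EpiLCs.

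Genes of further lineages outside the epiblast were called as well. Of 15 endothelial genes tested, 5 were higher and 1 lower. Vwf, the clotting glycoprotein of endothelium, had 7.999 and 9.54 CPM in LSD1 KO EpiLCs, against 1.62 and 0.989 CPM in WT EpiLCs (log2 fold change 2.73 ± 0.27, edgeR adjusted p = 1.74e-06), and Eng, a TGF-beta co-receptor, had 53.4 and 47.2 CPM in LSD1 KO EpiLCs, against 17.5 and 13.6 CPM in WT EpiLCs (log2 fold change 1.66 ± 0.11, edgeR adjusted p = 3.69e-08). The groups did not overlap in either, while Kdr and Cdh5, the defining endothelial receptors, stayed below 1 CPM. The 4 endothelial markers summed to 25.4 and 25.1 CPM in LSD1 KO EpiLCs, against 4.83 and 2.84 CPM in WT EpiLCs. Of 13 blood genes, Gata1 and Tal1 rose and Cd34 fell, though the call of Cd34 was lost (adjusted p of 0.012 to 0.0651) without LSD1 KO replicate 1, LSD1 KO replicate 2 or WT replicate 2. Of 12 cardiac genes, 4 were higher and 0 lower (0 below 0 at an unadjusted p under 0.05, 0 by DESeq2). Hand1 was among the 4 and is also counted in the trophoblast and streak lists. Ryr2, the calcium release channel of heart muscle, had 30.5 and 24.5 CPM in LSD1 KO EpiLCs, against 8.23 and 7.41 CPM in WT EpiLCs (log2 fold change 1.77 ± 0.16, edgeR adjusted p = 6.79e-07). Of 16 endoderm genes, 3 were higher and 0 lower (1 below 0 at an unadjusted p under 0.05, 0 by DESeq2), with only 1 higher without WT replicate 2 and 4 higher and 1 lower without WT replicate 1. Gata4, a GATA factor of primitive endoderm and heart, had 3.77 and 2.45 CPM in LSD1 KO EpiLCs, against 0.944 and 0.577 CPM in WT EpiLCs (log2 fold change 2.00 ± 0.30, edgeR adjusted p = 0.000106), with both LSD1 KO libraries higher, while Gata6 and Sox7 stayed below 1 CPM. Of 16 streak and early mesoderm genes, Eomes and Hand1 rose and Fgf17 fell. The primitive streak markers summed to 24.3 and 27.8 CPM in LSD1 KO EpiLCs, against 9.17 and 10.1 CPM in WT EpiLCs. Eomes, the only marker of this sum that was called, made up most of it in every library. The part of streak cells in these changes was not tested.

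Neural genes were called in both directions. Of 24 tested, 4 were higher and 7 lower, with a median log2 fold change of -0.92. The lower count was 3 without LSD1 KO replicate 2 and 2 without WT replicate 2. Nes, the intermediate filament of neural progenitors, had 16.2 and 15.98 CPM in LSD1 KO EpiLCs, against 29.4 and 42.6 CPM in WT EpiLCs. Both LSD1 KO libraries were lower (log2 fold change -1.21 ± 0.15, edgeR adjusted p = 3.87e-05), but the log2 value was -0.89, inside the threshold, without WT replicate 2. Tubb3, the neuronal tubulin, had 13.6 and 14.5 CPM in LSD1 KO EpiLCs, against 25.9 and 25.7 CPM in WT EpiLCs, a log2 difference of -0.92 ± 0.13 that was not past the threshold. In the other direction, Nefm, a neurofilament subunit, had 4.29 and 7.71 CPM in LSD1 KO EpiLCs, against 1.35 and 1.32 CPM in WT EpiLCs (log2 fold change 2.14 ± 0.30, edgeR adjusted p = 9.83e-05), and Nell2, a secreted neural glycoprotein, had 13.5 and 12.3 CPM in LSD1 KO EpiLCs, against 3.399 and 3.604 CPM in WT EpiLCs (log2 fold change 1.83 ± 0.17, edgeR adjusted p = 7.01e-07). The 3 neural markers summed to 14.5 and 13.1 CPM in LSD1 KO EpiLCs and to 24.4 and 24.9 CPM in WT EpiLCs.

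Mesenchymal genes moved both ways. Of 19 tested, 3 were higher and 5 lower, with a median log2 fold change of -0.73. Without LSD1 KO replicate 2 the counts were 1 and 3. Acta2, smooth muscle actin, had 0.307 and 0.267 CPM in LSD1 KO EpiLCs, against 1.89 and 2.31 CPM in WT EpiLCs (log2 fold change -2.91 ± 0.54, edgeR adjusted p = 0.000573). Tagln, an actin-binding protein of smooth muscle, had 1.04 and 0.713 CPM in LSD1 KO EpiLCs, against 3.29 and 6.36 CPM in WT EpiLCs (log2 fold change -2.53 ± 0.41, edgeR adjusted p = 0.000238). Dcn, a matrix proteoglycan, had 3.89 and 3.83 CPM in LSD1 KO EpiLCs, against 11.5 and 8.403 CPM in WT EpiLCs (log2 fold change -1.40 ± 0.19, edgeR adjusted p = 6.07e-05). In these genes the WT libraries were higher without overlap. Twist1, a bHLH factor of mesenchyme, had 3.62 and 2.72 CPM in LSD1 KO EpiLCs, against 1.03 and 1.07 CPM in WT EpiLCs and rose (log2 fold change 1.54 ± 0.28, edgeR adjusted p = 0.000572). The collagens Col1a1 and Col1a2, at 0.736 and 0.535 CPM and 0.4904 and 0.312 CPM in LSD1 KO EpiLCs, against 1.78 and 3.09 CPM and 1.699 and 5.13 CPM in WT EpiLCs, fell, but the calls of both were lost without LSD1 KO replicate 2 (adjusted p = 0.0269 and 0.0311) or WT replicate 2 (0.0368 and 0.0505), and that of Col1a2 also without LSD1 KO replicate 1 (0.0131). The 8 fibroblast markers, which feeder cells would bring, summed to 15.3 and 14.3 CPM in LSD1 KO EpiLCs and to 24.3 and 26.1 CPM in WT EpiLCs. Col3a1, Lum and Postn among them stayed below 1 CPM in all 4 libraries, and the part of such cells in the fall of the matrix genes was not tested.

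Epithelial genes also split, with 2 of 22 higher and 4 lower. Cldn7, a tight junction claudin, had 4.54 and 5.13 CPM in LSD1 KO EpiLCs, against 29.6 and 26.03 CPM in WT EpiLCs (log2 fold change -2.56 ± 0.16, edgeR adjusted p = 2.03e-08). Ap1m2, the adaptor subunit that sorts cargo to the basolateral membrane, had 2.27 and 1.78 CPM in LSD1 KO EpiLCs, against 15.6 and 15.5 CPM in WT EpiLCs (log2 fold change -2.99 ± 0.21, edgeR adjusted p = 6.83e-08). Cldn3, another claudin, had 12.3 and 14.1 CPM in LSD1 KO EpiLCs, against 4.75 and 3.83 CPM in WT EpiLCs and rose (log2 fold change 1.59 ± 0.17, edgeR adjusted p = 2.84e-06). No groups overlapped. Lama3, a laminin chain of epithelial basement membranes, had 71.7 and 76.3 CPM in LSD1 KO EpiLCs, against 16.8 and 11.8 CPM in WT EpiLCs, also without overlap (log2 fold change 2.34 ± 0.14, edgeR adjusted p = 1.43e-07), and was the only one of 19 basement membrane genes called.

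Imprinted genes, expressed from the copy of a single parent, were called in both directions. Of 36 tested, 9 were higher and 4 lower, and the median log2 fold change was 0.33. Among those that rose, Slc38a4, a paternally expressed amino acid transporter, had 239 and 247 CPM in LSD1 KO EpiLCs, against 76.4 and 74.3 CPM in WT EpiLCs (log2 fold change 1.65 ± 0.06, edgeR adjusted p = 3.36e-11). Mest, a paternally expressed hydrolase, had 556 and 619 CPM in LSD1 KO EpiLCs, against 216 and 213 CPM in WT EpiLCs (log2 fold change 1.41 ± 0.06, edgeR adjusted p = 1.18e-09). Sgce, which shares a bidirectional promoter with Peg10, had 11.5 and 11.2 CPM in LSD1 KO EpiLCs, against 2.697 and 1.895 CPM in WT EpiLCs (log2 fold change 2.28 ± 0.18, edgeR adjusted p = 2.46e-07). Peg10 itself, named here after its values were seen, was the most abundant of the raised imprinted genes, at 1634 and 1964 CPM in LSD1 KO EpiLCs and 323 and 245 CPM in WT EpiLCs (log2 fold change 2.63 ± 0.19, edgeR adjusted p = 0.000573). In each of these 4 genes, as in H19, both LSD1 KO libraries lay above both WT libraries. Kcnq1ot1, the paternally expressed noncoding RNA of the Kcnq1 domain, had 693 and 640.0 CPM in LSD1 KO EpiLCs, against 336 and 317 CPM in WT EpiLCs and stopped just short of the fold threshold (log2 fold change 0.99 ± 0.06). Lower were Cdkn1c, Dcn, Grb10 and Nnat, so genes of both parental origins were found on both sides.

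Part of the germline and meiosis genes rose: of 30 tested, 11 were higher and 1 lower, with a median log2 fold change of 0.63. Usp26, an X-linked testis deubiquitinase, had 42.4 and 37.8 CPM in LSD1 KO EpiLCs, against 7.09 and 6.302 CPM in WT EpiLCs (log2 fold change 2.54 ± 0.10, edgeR adjusted p = 3.16e-10). Stk31, a testis kinase, had 24.2 and 25.4 CPM in LSD1 KO EpiLCs, against 10.2 and 8.07 CPM in WT EpiLCs (log2 fold change 1.41 ± 0.13, edgeR adjusted p = 7.42e-07). Tex15, a factor of meiotic recombination and piRNA silencing, had 109 and 123 CPM in LSD1 KO EpiLCs, against 55.1 and 49.5 CPM in WT EpiLCs (log2 fold change 1.11 ± 0.08, edgeR adjusted p = 6.02e-08). The groups did not overlap in these. Rpl10l, the retrogene copy of Rpl10 used in spermatocytes, had 42.6 and 41.7 CPM in LSD1 KO EpiLCs, against 17.7 and 11.9 CPM in WT EpiLCs (log2 fold change 1.48 ± 0.16, edgeR adjusted p = 1.08e-05), a value uncertain where reads of the parent gene map to it. The single call below WT, Tdrd1, was lost whichever of the 4 libraries was left out. Of 23 genes of the cleavage-stage embryo in the data, 15 passed the filter. All 15 lay above 0, with a median log2 fold change of 1.56, but only Pramel7 was called. Genes near 0 in WT EpiLCs could pass the filter through a group where they were higher. That median therefore cannot be set against the one over all genes. DESeq2 called 4 of them higher, and 9 lay above 0 at an unadjusted edgeR p under 0.05. The list had 0 calls without LSD1 KO replicate 2, 2 without LSD1 KO replicate 1 and 7 without WT replicate 1. Pramel7 had 12 and 49 counts in LSD1 KO EpiLCs and 0 in both WT libraries (at least 22.5-fold over a floor of 3 counts), and its call was lost without LSD1 KO replicate 2 (adjusted p = 0.0627) or either WT library. Zscan4d had 6.34 and 9.43 CPM in LSD1 KO EpiLCs, against 3.24 and 0.947 CPM in WT EpiLCs, with WT libraries far apart (log2 fold change 1.91 ± 0.48, edgeR adjusted p = 0.0102). These families are multicopy and their counts are uncertain.

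Part of the interferon response genes rose. Of 32 tested, 8 were higher and 0 lower (2 below 0 at an unadjusted p under 0.05, and 0 lower by DESeq2), and the median log2 fold change was 0.99. Ube2l6, the E2 enzyme that conjugates ISG15, had 6.71 and 7.07 CPM in LSD1 KO EpiLCs, against 0.971 and 0.536 CPM in WT EpiLCs (log2 fold change 3.18 ± 0.27, edgeR adjusted p = 3.25e-07). Parp14, a mono-ADP-ribosyltransferase, had 28.2 and 19.5 CPM in LSD1 KO EpiLCs, against 4.05 and 2.99 CPM in WT EpiLCs (log2 fold change 2.73 ± 0.22, edgeR adjusted p = 4.16e-07), and its neighbours Parp9 and Dtx3l, which act as a complex, had 43.3 and 38.8 CPM and 76.5 and 71.6 CPM in LSD1 KO EpiLCs, against 12.95 and 8.79 CPM and 28.7 and 22.7 CPM in WT EpiLCs. None of the 4 genes overlapped between groups. Parp14, Parp9 and Dtx3l lie on chromosome 16, where genes stood higher as a whole: the median log2 fold change of its 482 tested genes was 0.24, and that of every other chromosome lay between -0.07 and 0.05. The part of this chromosome-wide difference in the values of the 3 genes was not tested.

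Genes of general metabolism were called in both directions. Of 19 glycolysis genes 3 were higher and 2 lower. Slc2a3, a glucose transporter of embryonic cells, had 295 and 332 CPM in LSD1 KO EpiLCs and was lower in both WT EpiLC libraries (log2 fold change 1.74 ± 0.13, edgeR adjusted p = 4.08e-05), and Hk1, a hexokinase, had 64.5 and 69.7 CPM in LSD1 KO EpiLCs, against 23.1 and 18.6 CPM in WT EpiLCs (log2 fold change 1.65 ± 0.10, edgeR adjusted p = 1.97e-08). Slc16a3, the lactate exporter, had 132 and 124 CPM in LSD1 KO EpiLCs, against 325 and 295 CPM in WT EpiLCs and fell (log2 fold change -1.31 ± 0.07, edgeR adjusted p = 6.16e-09). These 3 genes separated the groups completely. Of 19 p53 targets only Cdkn1a, the cell cycle inhibitor p21, was called, at 74.2 and 67.97 CPM in LSD1 KO EpiLCs, against 29.4 and 26.7 CPM in WT EpiLCs (log2 fold change 1.30 ± 0.08, edgeR adjusted p = 2.03e-08). Its regulator gene Mdm2 had 197 and 187 CPM in LSD1 KO EpiLCs, against 105 and 97.9 CPM in WT EpiLCs, a log2 difference of 0.88 ± 0.05 inside the threshold. Of 29 lysosome genes Cd63 was called higher, and of 23 integrated stress response genes Chac1 and Vldlr were called lower. Of 12 DNA methylation genes, Dnmt3l, Tet2 and Zfp57 were called higher. The last is a zinc finger protein that keeps imprints, and its log2 fold change was 1.07 ± 0.14, but 0.99 without LSD1 KO replicate 2 and 0.86 without WT replicate 2.

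Of 21 CoREST complex genes tested, Kdm1a was the only one called by edgeR or DESeq2, with 4 above and 11 below 0 at an unadjusted p under 0.05. The highest log2 value was that of Gfi1, a repressor that recruits LSD1. Gfi1, named after its values were seen, had 0.184 and 0.156 CPM in LSD1 KO EpiLCs, against 0.0539 and 0 CPM in WT EpiLCs (log2 fold change 2.64 ± 1.42, edgeR adjusted p = 0.161). The subunit gene Gse1 had 201 and 186 CPM in LSD1 KO EpiLCs, against 252 and 239 CPM in WT EpiLCs (log2 difference -0.39 ± 0.06). Of 22 enhancer enzymes, which write or read histone methylation and acetylation, 0 were called by edgeR and 0 by DESeq2, with 5 above and 7 below 0 at an unadjusted p under 0.05. Kmt2c, a methyltransferase of enhancers, had 174 and 166 CPM in LSD1 KO EpiLCs, against 118 and 123 CPM in WT EpiLCs (log2 difference 0.45 ± 0.06). Of 16 housekeeping genes, 0 were called by either tool, with 4 above and 6 below 0 at an unadjusted p under 0.05.

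**Figure D3:**
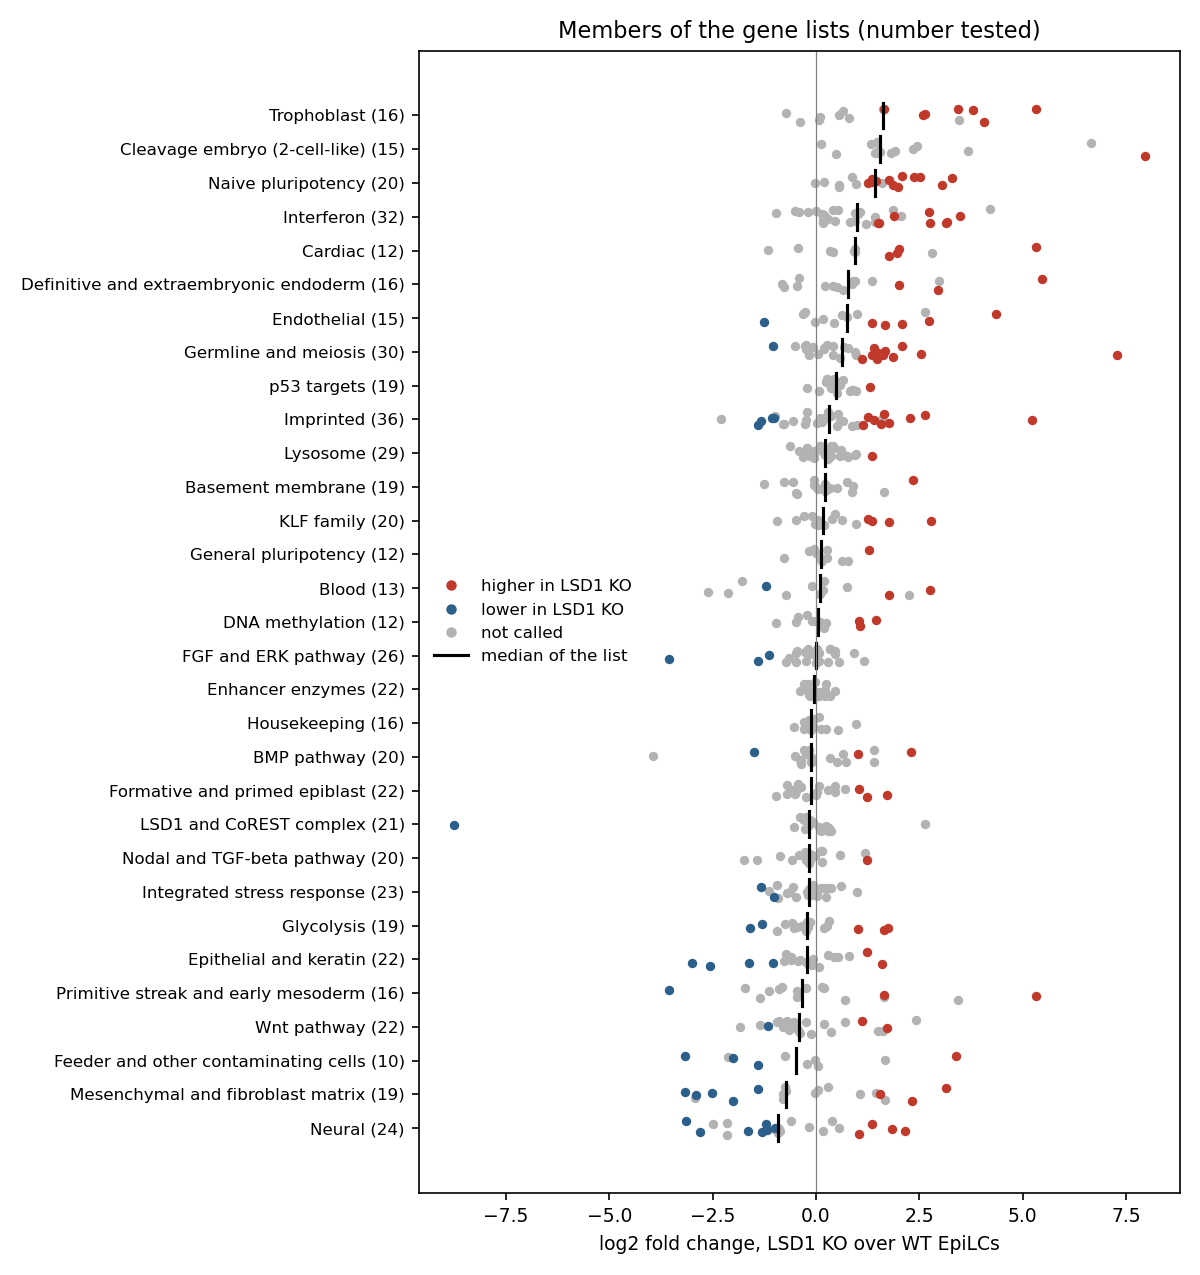
Log2 fold change of LSD1 KO over WT EpiLCs for every tested member of 31 gene lists, 1 point per gene (red called higher, blue called lower, grey not called), with the median of each list as a black bar and the number tested in brackets. The trophoblast, cleavage embryo and naive lists had the highest medians (1.63, 1.56 and 1.42) and the neural and mesenchymal lists the lowest (-0.92 and -0.73). Of the 23 cleavage embryo genes in the data only 15 passed the filter, which can favour genes that are higher in LSD1 KO EpiLCs.

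Setting LSD1 KO against LSD1 CI EpiLCs asks what loss of the protein does beyond loss of its activity. This comparison used the same LSD1 KO libraries as the one with WT, so the 2 sets of values are not independent. Fewer genes were called: 481 of 15986 were higher (3.01%) and 155 lower (0.97%) in LSD1 KO than in LSD1 CI EpiLCs. Leaving out a library in turn gave 289 to 362 higher and 98 to 119 lower genes, with the lowest counts without LSD1 CI replicate 1 (289 and 98) and counts of 313 and 100 without LSD1 KO replicate 2. The largest increases were in Esx1, Emp1, Hand1, Robo4, H19, Ebf1, Anxa1, Tfap2c, Gprc5a, Mir669g, Dnajc6 and Txlnb. Emp1, an epithelial membrane protein, had 19.95 and 21.1 CPM in LSD1 KO EpiLCs, against 0.8897 and 1.06 CPM in LSD1 CI EpiLCs (log2 fold change 4.33 ± 0.21, edgeR adjusted p = 3.24e-08). Esx1 had 33.4 and 25.8 CPM in LSD1 KO EpiLCs, against 0.983 and 1.73 CPM in LSD1 CI EpiLCs (log2 fold change 4.38 ± 0.20, edgeR adjusted p = 5.21e-09). Dnajc6, the auxilin that uncoats clathrin vesicles, had 25.1 and 24.5 CPM in LSD1 KO EpiLCs, against 3.23 and 3.101 CPM in LSD1 CI EpiLCs (log2 fold change 2.91 ± 0.13, edgeR adjusted p = 1.74e-09). In all 3 genes the LSD1 CI libraries lay near or below those of WT EpiLCs, which had 1.35 and 2.35 CPM of Emp1, 2.08 and 2.06 CPM of Esx1 and 3.399 and 2.68 CPM of Dnajc6. Anxa1, at 6.01 and 10.97 CPM in LSD1 KO EpiLCs, against 0.749 and 1.196 CPM in LSD1 CI EpiLCs, was called only with both LSD1 CI libraries and LSD1 KO replicate 2 present (adjusted p of 0.0108 to 0.0533 otherwise), and Mir669g is a microRNA precursor inside a host gene, whose reads it may have counted.

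In H19 and Robo4 the LSD1 CI libraries lay above WT and below LSD1 KO. H19 had 56.8 and 54.8 CPM in LSD1 KO EpiLCs, against 6.02 and 5.83 CPM in LSD1 CI EpiLCs (log2 fold change 3.18 ± 0.23, edgeR adjusted p = 9.48e-06). Robo4 had 12.6 and 12.4 CPM in LSD1 KO EpiLCs, against 1.05 and 1.196 CPM in LSD1 CI EpiLCs (log2 fold change 3.41 ± 0.24, edgeR adjusted p = 1.79e-07). Klf2 had 36.3 and 45.8 CPM in LSD1 KO EpiLCs, against 17.5 and 21.97 CPM in LSD1 CI EpiLCs, with a difference at the edge of the fold threshold (log2 fold change 1.00 ± 0.15, edgeR adjusted p = 0.000266). It was no longer called without LSD1 KO replicate 2 (log2 fold change 0.81) or without LSD1 CI replicate 1 (0.84). Of the 20 naive genes, 8 were higher and 0 lower in LSD1 KO than in LSD1 CI EpiLCs (0 below 0 at an unadjusted p under 0.05, 0 lower by DESeq2), with a median log2 fold change of 0.97. That count rested on single libraries: it was 1 without LSD1 CI replicate 1, 2 without LSD1 KO replicate 2, and 6 without LSD1 CI replicate 2 or LSD1 KO replicate 1. Nanog had 117 and 128 CPM in LSD1 KO EpiLCs, against 28.8 and 29.4 CPM in LSD1 CI EpiLCs, and its LSD1 CI libraries were below both WT libraries. Of 16 trophoblast genes, 8 were higher and 0 lower (0 below 0 at an unadjusted p under 0.05, 0 lower by DESeq2), and Gata3 had 4.57 and 5.93 CPM in LSD1 KO EpiLCs, against 1.59 and 1.64 CPM in LSD1 CI EpiLCs. Of 22 formative genes 0 were called by edgeR or DESeq2, with 5 above and 8 below 0 at an unadjusted p under 0.05.

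For some germline genes LSD1 CI EpiLCs stood with LSD1 KO EpiLCs. Of 30 germline genes, 1 was higher and 0 lower in LSD1 KO than in LSD1 CI EpiLCs (6 below 0 at an unadjusted p under 0.05, 0 lower by DESeq2), and their median log2 fold change was -0.04. Usp26 had 42.4 and 37.8 CPM in LSD1 KO EpiLCs, against 55.2 and 60.2 CPM in LSD1 CI EpiLCs, Stk31 had 24.2 and 25.4 CPM in LSD1 KO EpiLCs, against 22.95 and 25.5 CPM in LSD1 CI EpiLCs, and Tex15 had 109 and 123 CPM in LSD1 KO EpiLCs, against 98.04 and 107 CPM in LSD1 CI EpiLCs. The log2 differences were -0.58 ± 0.09, -0.02 ± 0.12 and 0.12 ± 0.08, none past the threshold. On the other side, Foxn4 had 2.02 and 3.32 CPM in LSD1 KO EpiLCs, against 23.4 and 25.1 CPM in LSD1 CI EpiLCs (log2 fold change -3.21 ± 0.21, edgeR adjusted p = 1.6e-07), and Mid1, an X-linked microtubule-associated ubiquitin ligase, had 178 and 209.9 CPM in LSD1 KO EpiLCs, against 1211 and 1223 CPM in LSD1 CI EpiLCs (log2 fold change -2.71 ± 0.09, edgeR adjusted p = 2.86e-08). Mid1 in WT EpiLCs, at 527 and 454 CPM, lay between the mutants. Ror1, a receptor for Wnt5a, had 2.76 and 2.88 CPM in LSD1 KO EpiLCs, against 12.01 and 16.6 CPM in LSD1 CI EpiLCs (log2 fold change -2.40 ± 0.24, edgeR adjusted p = 6.1e-06).

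**Figure D4:**
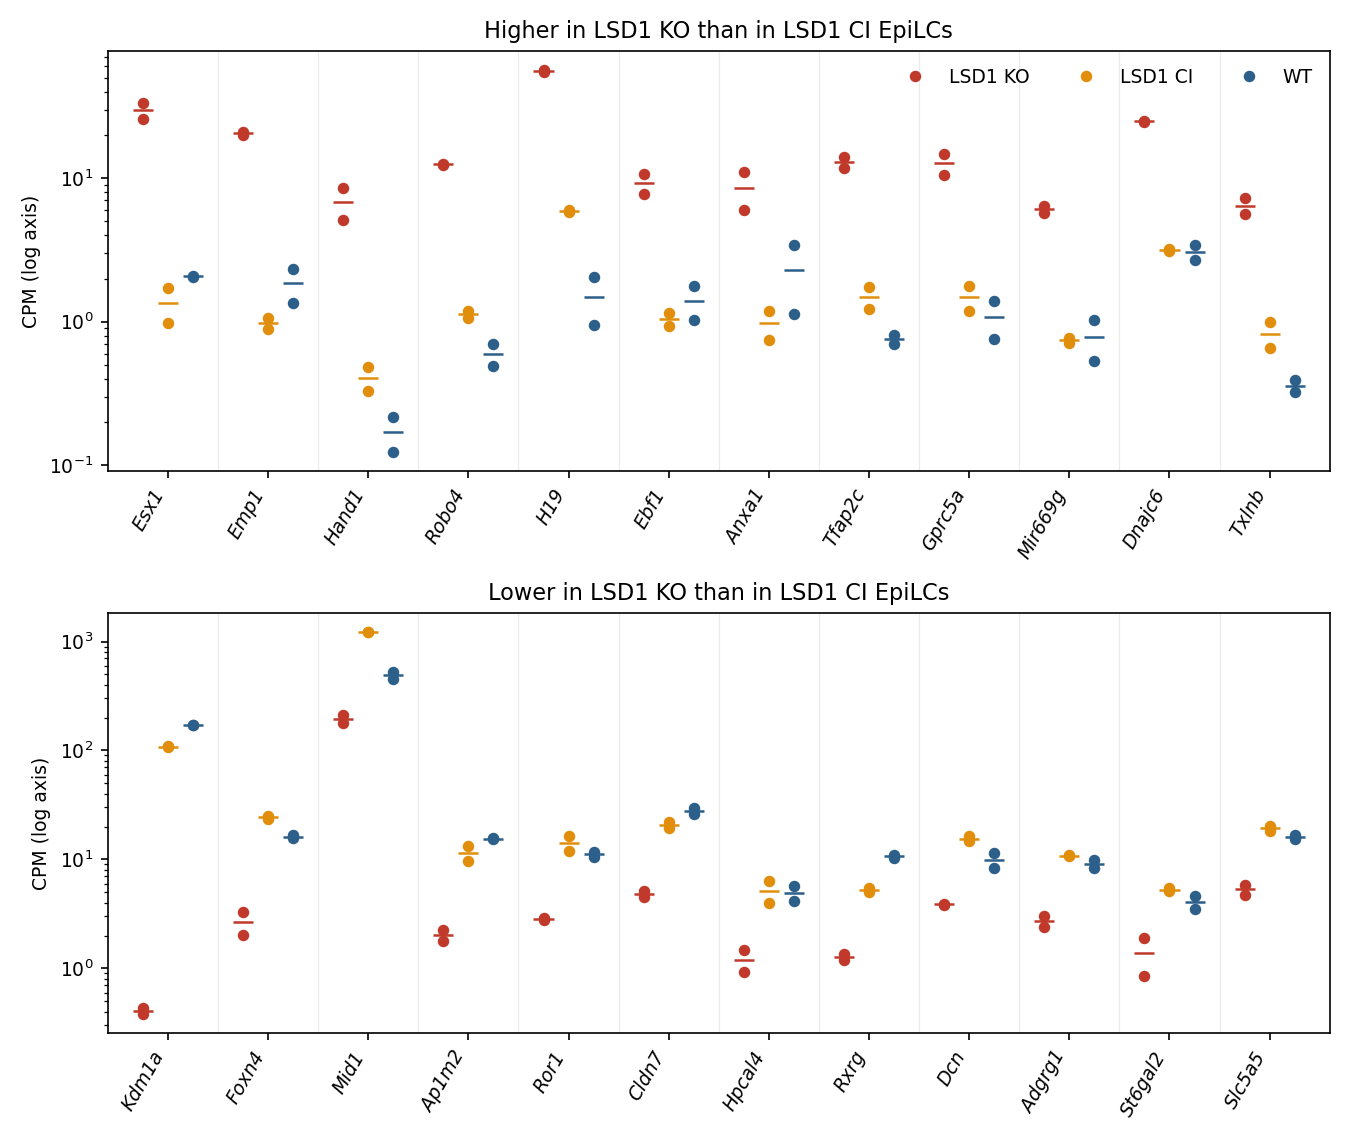
CPM on a log axis in LSD1 KO (red), LSD1 CI (orange) and WT (blue) EpiLCs, 1 point per library with a line at the mean of 2, for the 12 genes with the largest increase (top) and the 12 with the largest decrease (bottom) in LSD1 KO against LSD1 CI EpiLCs. In the top panel the LSD1 KO points lie above those of both other groups, with H19 at 6.02 and 5.83 CPM in LSD1 CI and 2.05 and 0.947 CPM in WT EpiLCs. In the bottom panel Mid1 is highest in LSD1 CI EpiLCs, at 1211 and 1223 CPM.

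The response to loss of LSD1 was then set against that in naive ESCs, as the log2 fold change of LSD1 KO over WT in EpiLCs minus that in ESCs, tested as an interaction. Of 16525 genes, 605 had a difference above 0 (3.66%) and 350 below 0 (2.12%), but the number moved with the fit: 344 and 194 with the replicate number as a block, 486 and 286 with the block in ESCs only, and 302 and 190 with all 11 WT ESC libraries. Without WT ESC replicate 2 the counts were 1202 and 721. They were 339 and 188 without LSD1 KO EpiLC replicate 1, 311 and 172 without LSD1 KO EpiLC replicate 2, 397 and 269 without WT EpiLC replicate 1, and 273 and 192 without WT EpiLC replicate 2. WT ESC 1 to 3 were used because they share with the 6 LSD1 KO ESC libraries a count of 0 on unplaced contigs, where WT ESC 4 to 11 had 4964 to 9505 counts and each EpiLC library also had some. None of the ESC libraries used carried DMSO, and the labels do not say whether the same clones were used in both states. Cell state, solvent, clone and any difference in alignment therefore cannot be told apart here. With all 11 WT ESC libraries 13 named genes were no longer called, among them the naive genes Klf4 (log2 difference 0.9996) and Dppa3 (adjusted p = 0.408).

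Most naive genes had a response that was higher in EpiLCs on the signed scale, which is not always a larger one. Of 20 tested, 13 had a difference above 0 and 0 below (0 below at an unadjusted p under 0.05, 0 by DESeq2), with a median of 1.40 against 0.05 over all genes tested. In ESCs, where these genes are abundant, all LSD1 KO libraries lay above all WT libraries for 6 of the 20 genes, below them for 4, and overlapped them for 10. The same counts over all genes were not made, so these cannot be read as particular to naive genes. Esrrb had 325 to 358 CPM in LSD1 KO ESCs (median 339), against 633, 402 and 672 CPM in WT ESCs, lower in every LSD1 KO library, and a difference between states of 2.77 ± 0.22. Klf2 had 115 to 155 CPM in LSD1 KO ESCs (median 138), against 269, 139 and 298 CPM in WT ESCs, where only WT ESC 2 overlapped the LSD1 KO range, and a difference of 2.59 ± 0.32. Nanog had 830.3 to 1076 CPM in LSD1 KO ESCs (median 909.8), against 454, 616 and 579 CPM in WT ESCs, higher in LSD1 KO cells of both states, with a difference of 1.17 ± 0.17. Tbx3 had 291 to 351 CPM in LSD1 KO ESCs (median 318), against 246, 215 and 183 CPM in WT ESCs, likewise higher in both, and a difference of 2.77 ± 0.26. Prdm14 had 33.3 to 41.6 CPM in LSD1 KO ESCs (median 35.7), against 33.8, 26.9 and 39.1 CPM in WT ESCs, with overlapping groups, and a difference of 2.97 ± 0.40.

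**Figure D5:**
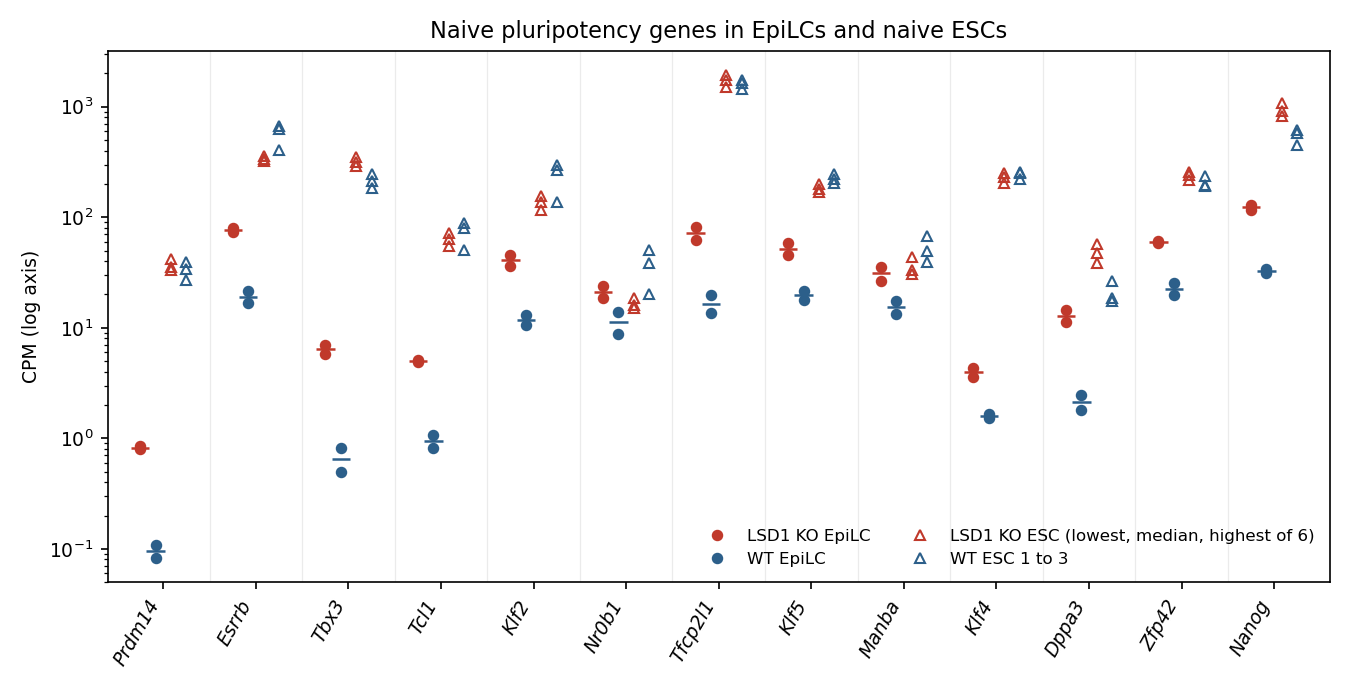
CPM on a log axis of the 13 naive genes whose LSD1 KO response differed between EpiLCs and naive ESCs, ordered by that difference, with LSD1 KO (red) left of WT (blue) in EpiLCs (circles, 2 libraries each) and in ESCs (open triangles, the lowest, median and highest of 6 LSD1 KO libraries and 3 WT libraries). In EpiLCs the red points lie above the blue ones for every gene shown, while in ESCs Esrrb and Nr0b1 lie lower in LSD1 KO than in WT.

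H19 and Tfap2c also had differences above 0. H19 had 0.2496 to 1.100 CPM in LSD1 KO ESCs (median 0.439), against 0.505, 0.606 and 0.309 CPM in WT ESCs, at 1.10 CPM or less throughout and overlapping, and its difference was 4.91 ± 0.60, which was not called with all 11 WT ESC libraries (4.78, adjusted p = 0.0186). Tfap2c had 41.97 to 47.95 CPM in LSD1 KO ESCs (median 44.6), against 82.4, 72.98 and 74.9 CPM in WT ESCs, lower in LSD1 KO ESCs although higher in LSD1 KO EpiLCs, and its difference was 4.90 ± 0.20. Nrp2, a semaphorin and VEGF co-receptor, had 9.38 to 13.9 CPM in LSD1 KO ESCs (median 10.9), against 47.9, 71.6 and 52.4 CPM in WT ESCs, lower in LSD1 KO ESCs, while in EpiLCs it rose, with 8.77 and 12.4 CPM in LSD1 KO EpiLCs, against 3.26 and 4.18 CPM in WT EpiLCs (difference 3.89 ± 0.28). Hand1 had a difference below 0, and in ESCs it had 366 to 622 counts in the 6 LSD1 KO ESC libraries and 0 in 3 WT libraries, at least 560-fold higher against a floor of 3 counts over the WT group. Its difference was not called with all 11 WT ESC libraries (adjusted p = 0.0458). Slc38a4 likewise had 209 to 276 CPM in LSD1 KO ESCs (median 243), against 5.73, 4.76 and 4.898 CPM in WT ESCs, a wider gap than in EpiLCs (difference -3.85 ± 0.17). With all 11 WT ESC libraries that difference shrank to -1.84 and was not called (adjusted p = 0.316). Dab2, an endocytic adaptor of extraembryonic endoderm, had 8.14 to 22.5 CPM in LSD1 KO ESCs (median 14.8), against 0.367, 0.2598 and 0.241 CPM in WT ESCs, while in EpiLCs it had 9.96 and 12.03 CPM in LSD1 KO EpiLCs, against 6.204 and 8.79 CPM in WT EpiLCs and was not called (difference -5.11 ± 0.49).

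Formative genes split between states, with 3 of 22 differences above 0 and 6 below (3 below without LSD1 KO EpiLC replicate 1, and 4 without LSD1 KO EpiLC replicate 2 or WT EpiLC replicate 2). Dnmt3l had 124 to 195 CPM in LSD1 KO ESCs (median 144), against 10.6, 19.5 and 22.8 CPM in WT ESCs, with no overlap (difference -2.02 ± 0.34). This difference rested on the choice of WT ESC libraries, being -0.67 with all 11 (adjusted p = 0.693). Dnmt3b had 128 to 193 CPM in LSD1 KO ESCs (median 152), against 88.8, 145 and 133 CPM in WT ESCs, with overlapping groups, against its lower level in LSD1 KO EpiLCs (difference -1.26 ± 0.24, not called without LSD1 KO EpiLC replicate 1, adjusted p = 0.0118, or with all 11 WT ESC libraries, adjusted p = 0.0369). Etv4, an ETS target of FGF signalling, had 3.81 to 5.32 CPM in LSD1 KO ESCs (median 4.13), against 21.2, 12.8 and 18.9 CPM in WT ESCs, lower in LSD1 KO ESCs, but 77.4 and 100.2 CPM in LSD1 KO EpiLCs, against 82.3 and 89.9 CPM in WT EpiLCs (difference 2.09 ± 0.25, not called with all 11 WT ESC libraries, adjusted p = 0.0829). Fgf5 was at 0 counts in all 6 LSD1 KO ESC libraries and at 2, 8 and 6 counts in WT ESCs, so its fitted difference is no fold change. Of 23 integrated stress response genes, 11 had a difference above 0 and 0 below (0 below at an unadjusted p under 0.05, 0 by DESeq2), with a median of 1.195, and 6 to 9 were above 0 without any single EpiLC library. Stc2, a secreted glycoprotein of that response, had 2.09 to 4.05 CPM in LSD1 KO ESCs (median 3.38), against 26.00, 31.1 and 18.9 CPM in WT ESCs, while in EpiLCs it had 4.35 and 4.12 CPM in LSD1 KO EpiLCs, against 5.61 and 7.62 CPM in WT EpiLCs.

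Cells kept in serum with DMSO differ from EpiLCs in medium and in days of differentiation as well as in state, which cannot be told apart. Against them, the response in EpiLCs differed for few genes: 105 of 16251 differences were above 0 (0.646%) and 55 below 0 (0.338%). These counts depended on single libraries. They were 39 and 8 without LSD1 KO EpiLC replicate 1, 37 and 10 without LSD1 KO EpiLC replicate 2, 54 and 25 without LSD1 KO serum replicate 1, 67 and 43 without LSD1 KO serum replicate 2, 207 and 147 without WT serum replicate 1, and 76 and 31 without WT serum replicate 2. H19 had 851 and 673 CPM in LSD1 KO serum cells, against 27.3 and 29.7 CPM in WT serum cells, far above its EpiLC level in both genotypes. Its response was not called different (difference 0.50 ± 0.36, edgeR adjusted p = 0.495). Klf2 had 50.5 and 39.5 CPM in LSD1 KO serum cells, against 11.5 and 5.89 CPM in WT serum cells, and its difference was -0.59 ± 0.48. Robo4 had 6.57 and 4.32 CPM in LSD1 KO serum cells, against 0.408 and 0.231 CPM in WT serum cells, and its difference was 0.28 ± 0.51. In all 3 genes the LSD1 KO libraries lay above WT in serum too. Of the 20 naive genes, only Nanog was called, with 334 and 298 CPM in LSD1 KO serum cells, against 184 and 230.1 CPM in WT serum cells and a difference of 1.26 ± 0.14.

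Stress response genes again accounted for part of the differences, with 8 of 23 above 0 and 0 below (0 below at an unadjusted p under 0.05, 0 by DESeq2). Chac1, a glutathione-degrading enzyme of that response, had 3.24 and 3.21 CPM in LSD1 KO serum cells, against 57.5 and 40.8 CPM in WT serum cells, against its smaller fall in EpiLCs (difference 2.61 ± 0.28). Stc2 had 2.94 and 2.58 CPM in LSD1 KO serum cells, against 28.9 and 25.5 CPM in WT serum cells (difference 2.62 ± 0.27). Fstl1, a secreted BMP modulator on chromosome 16, had 64.04 and 63.6 CPM in LSD1 KO serum cells, against 74.2 and 94.5 CPM in WT serum cells, whereas in EpiLCs it had 70.9 and 75.5 CPM in LSD1 KO EpiLCs, against 22.6 and 20.6 CPM in WT EpiLCs (difference 2.14 ± 0.14). Vangl1, a planar polarity protein, had 20.8 and 21.5 CPM in LSD1 KO serum cells, against 21.3 and 32.1 CPM in WT serum cells, and 36.01 and 39.5 CPM in LSD1 KO EpiLCs, against 10.4 and 10.3 CPM in WT EpiLCs (difference 2.18 ± 0.22). In the opposite direction, Cxcl12 had 27.1 and 33.3 CPM in LSD1 KO serum cells, against 22.5 and 16.2 CPM in WT serum cells, higher in LSD1 KO serum cells but lower in LSD1 KO EpiLCs (difference -3.17 ± 0.40). That call was lost with the replicate block and in 5 of the fits with a library left out.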

How the data were processed

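RNA was rRNA-depleted, prepared with a directional kit and sequenced paired-end. The authors trimmed the reads with Trim Galore, aligned them to mm9 with STAR 2.7.9a, removed duplicates with Picard 2.25.5 and counted reverse-stranded reads per gene. The deposited values are these raw counts for 25209 symbols, with no normalisation. Libraries were grouped by their labels.

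Here edgeR 4.0.16 (TMM factors, filterByExpr by group, robust quasi-likelihood F test, R 4.3.3) was fitted to all 8 EpiLC libraries, which include 2 of LSD1 KO cells with the p300/CBP inhibitor A485, so that the groups share an estimate of the spread. Standard errors are the log2 fold change over the square root of F. Benjamini-Hochberg adjustment ran over all genes tested, and the study's thresholds were kept (adjusted p below 0.01 and absolute log2 fold change above 1). Differences between cell states are interaction terms. On simulated counts of 15591 genes, edgeR recovered 81% of 100 genes changed 3-fold and 93% of 100 changed 6-fold, with 1 false call. The changed genes were drawn only from those above a minimum mean count, and no other gene differed between groups. These rates may therefore not hold for genes of low level. CPM are relative to all counts of a library, Rn45s included.

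The gene lists and markers were chosen with earlier results of these data known. Named are Kdm1a, Klf2, H19, Robo4, all naive and formative genes, up to 12 called genes per direction (largest change, at least 5 CPM, no overlap), up to 4 genes per list by adjusted p, and up to 6 per direction of each interaction. Pou5f1, Peg10, Gfi1, Nutm1, Obox6, Tdrd1, Vldlr, Cdkn1c, Grb10 and Nnat were named after their values were seen. Numbered ESC libraries 1 to 3 of both genotypes deviated together (correlations 0.174, 0.210 and 0.266), though no label ties them. The replicate number was used as a block in alternative fits, over all groups of a comparison or in ESCs only. In both, LSD1 KO ESC 4 to 6 had blocks of their own and so added nothing to the difference between states. The first also tied EpiLC to ESC libraries of the same number. Other alternatives were DESeq2 1.42.0, its size factors, no filter, halved counts, no Rn45s, the compared groups only, and each library left out. Removal of chromosome 16 genes was added after seeing the data. Promoter windows come from RefSeq (GRCm38.p6), and gene positions from mm9.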

Additional observations from a re-analysis of the deposited data

Results flagged for a closer look

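The interaction test of the LSD1 KO response called 605 differences between EpiLCs and naive ESCs above 0 and 350 below 0. Listed here are 33 of these, the called naive and formative genes and the largest others, as the log2 difference between the 2 responses. Among naive genes the log2 difference was above 0 for Klf2 (2.59), Klf4 (1.41), Klf5 (1.70), Esrrb (2.77), Zfp42 (1.23), Tbx3 (2.77), Tfcp2l1 (2.03), Nr0b1 (2.06), Prdm14 (2.97), Nanog (1.17), Dppa3 (1.40), Tcl1 (2.61) and Manba (1.63). Among formative genes it was above 0 for Fgf5 (5.77, from 0 counts in all LSD1 KO ESC libraries), Etv4 (2.09) and Nodal (1.36), and below 0 for Dnmt3a (-1.01), Dnmt3b (-1.26), Dnmt3l (-2.02), Sall2 (-1.25), Grhl2 (-2.91) and Lin28b (-1.28). The largest others above 0 were H19 (4.91), Tfap2c (4.90), Nrp2 (3.89), Gprc5a (3.65) and Nrcam (3.63). The largest others below 0 were Hand1 (-6.62, from 0 counts in WT ESCs), Dab2 (-5.11), Slc38a4 (-3.85), Kdm1a (-3.83), Sema6a (-3.74) and Pkdcc (-3.70). Kdm1a is the deleted gene. Its remaining level in LSD1 KO cells was lower in EpiLCs than in ESCs, and the reason was not tested.

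With all 11 WT ESC libraries in place of 3, the calls of Dnmt3a, Dnmt3b, Dnmt3l, Dppa3, Etv4, Fgf5, H19, Hand1, Klf4, Lin28b, Nodal, Pkdcc and Slc38a4 were lost (adjusted p of 0.0186 to 0.707). The value moved most in Pkdcc, to -0.74, in Dnmt3l, to -0.67, in Slc38a4, to -1.84, and in Hand1, to -3.22. Pkdcc was also lost with either replicate block, with halved counts and without any of 5 single libraries (adjusted p of 0.0115 to 0.0553).

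Against serum cells, the response in EpiLCs was above that in serum for Abat (2.87), Stc2 (2.62), Chac1 (2.61), Slc2a3 (2.35), Vangl1 (2.18), Fstl1 (2.14) and Nanog (1.26). It was below it for Dnajc5g (-6.49), Rec114 (-4.99), Lgals9 (-4.59), Cxcl12 (-3.17), Rxrg (-2.99) and Dcn (-2.97). Dnajc5g had 113 and 71 counts in LSD1 KO serum cells and 0 in both WT serum libraries, and Rec114 had 160 and 80 counts in LSD1 KO and 2 and 0 in WT serum cells, so their fitted values are no fold changes. With single libraries left out, Dnajc5g lost its call in 7 fits (adjusted p of 0.0116 to 0.0468), Cxcl12 and Dcn in 5 each (0.0167 to 0.0535 and 0.0108 to 0.0299), Lgals9 and Rec114 in 4 each (0.0299 to 0.0566 and 0.0175 to 0.0434), Rxrg without LSD1 KO EpiLC replicate 1 or 2 (0.0256 and 0.031), and Abat without LSD1 KO EpiLC replicate 2 (0.015).

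Among the 6 LSD1 KO ESC libraries, the lowest value of Fgf4 (193 CPM) lay apart from the others (208 to 217 CPM), and the highest value of Manba (43.7 CPM) lay apart from the others (30.8 to 35.1 CPM). Groups were tested 32 times for such a gap, and chance gives about 1 in 20.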

How the results depend on the processing

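Between LSD1 KO and WT EpiLCs, counts of higher and lower genes were 1127 and 434 by DESeq2, 1273 and 521 with no filter, 1045 and 399 with the compared groups only, and 851 to 1100 and 271 to 448 with a library left out. Against LSD1 CI EpiLCs they were 534 and 173 by DESeq2, 659 and 222 with no filter, 591 and 188 with the compared groups only, and 289 to 362 and 98 to 119 with a library left out. Formative genes called higher numbered 1 to 3, and lower 0 to 1, with a library left out. Differences from naive ESCs above and below 0 were 769 and 583 by DESeq2, 302 and 190 with all 11 WT ESC libraries, and 273 to 1202 and 172 to 721 with a library left out. Differences from serum cells were 233 and 148 by DESeq2, 329 and 329 with no filter, and 37 to 207 and 8 to 147 with a library left out. The cause of these shifts was not tested. No named value changed sign past the threshold.

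With the replicate number as a block, LSD1 KO against WT gave 1101 and 434 genes, LSD1 KO against LSD1 CI 505 and 169, the ESC differences 344 and 194, and the serum differences 167 and 92. The block ended the calls of Dnmt3l, Prdm14 and Sema6a between LSD1 KO and WT EpiLCs, of Dnmt3a, Fgf5, Lin28b, Nodal and Pkdcc in the ESC difference, and of Cxcl12 in the serum difference. Same-numbered libraries correlated in their deviations at 0.015 between LSD1 KO and WT EpiLCs and at 0.308 between LSD1 KO and LSD1 CI EpiLCs. Between LSD1 KO and WT serum cells the correlation was 0.244, and each rests on 2 pairs. No label ties these libraries, so like the ESC libraries they share only a number. With 2 libraries a side, differences inside the thresholds cannot be taken as absent.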

Other observations

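Genes of chromosome 16 stood higher as a whole in LSD1 KO EpiLCs. Of 482 tested, 74.1% had a log2 fold change above 0, 40 were called higher (8.3%, against 6.82% over all genes) and 4 lower (0.83%, against 2.66%), and the medians of the first, middle and last parts of the chromosome were 0.24, 0.34 and 0.13. The median log2 level of chromosome 16 genes relative to the other autosomes was above the WT mean by 0.25 and 0.23 in LSD1 KO EpiLCs and by 0.35 and 0.32 in LSD1 KO EpiLCs with A485, against 0.01 and 0.02 in LSD1 CI EpiLCs and 0.02 and -0.02 in WT EpiLCs. In naive ESCs it lay between 0.07 and 0.14 in LSD1 KO ESCs and between -0.04 and 0.06 in WT ESCs, and in serum it was 0.09 and 0.05 in LSD1 KO cells and 0.0006 and -0.0006 in WT cells. Dppa2 and Dppa4, pluripotency genes that lie on it, had log2 fold changes of 0.63 and 0.77. Without chromosome 16 genes, 1058 genes were higher and 413 lower. On the X chromosome, 64 of 613 tested genes were higher (10.4%).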
